A study of Mus musculus with 3 samples.

Results

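A set of 10 inflammatory genes were followed through the blood cells of naive and leukemic mice. They are Il1b, Il1rn, Nlrp3, Tnf, Osm, Tgfb1, Cxcl2, Ccl3, Ccl4 and Saa3, which are 10 of the 32285 genes in the count matrices. They were chosen by their levels in these same libraries and by how those levels moved between conditions, so the levels and ratios below are descriptions and no test is given. The value of a gene in a cell class is its UMIs (unique molecular identifiers, 1 per captured transcript) summed over the cells of that class in 1 library and scaled to CPM (counts per 1000000 UMIs of that class). Each level is printed with its 95% counting interval, which covers counting error only.

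The libraries came from peripheral blood (PB) leukocytes of BALB/c mice labelled WT. One library was made from naive mice without leukemia, 1 from mice engrafted with the BBC2 line at an intermediate stage (D11), and 1 from engrafted mice at a late stage (D14). BBC2 is a single murine line derived from a stem cell leukemia/lymphoma syndrome in which BCR-FGFR1 was the driver, and its cells resemble pro-B cells. The number of mice behind each library is not given in the sources used here, and with 1 library per condition a difference between conditions and a difference between libraries cannot be told apart.

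Interleukin-1 beta, encoded by Il1b, is made as an inactive precursor and cut by caspase-1 in the inflammasome, a complex in which NLRP3 is a sensor. Il1rn encodes the receptor antagonist that blocks it. TNF and oncostatin M (Osm) are secreted cytokines, TGF-beta 1 (Tgfb1) restrains many immune responses, CXCL2 attracts neutrophils, CCL3 and CCL4 attract monocytes, T cells and NK cells, and SAA3 is an acute phase protein. In myeloid cells many of these genes are switched on through NF-kappaB and C/EBP factors.

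The promoters of 8 of the 10 genes were found in RefSeq (GRCm38.p6), and those of 4 genes with different patterns in blood are shown as the bases upstream of the first start of transcription. Il1b was the most abundant member, Cxcl2 lay almost only in neutrophils, Tnf was spread over several classes and Saa3 appeared in classical monocytes of the late library. Capitals mark matches to a TATA box (TATAAA), a C/EBP motif (TTNCNNAA) and the NF-kappaB consensus, each searched on both strands, so that a C/EBP match on the other strand is in capitals as its reverse complement. The Il1b stretch is chr2:129371140-129371389 on the minus strand, that of Tnf chr17:35202008-35202257 on the minus strand, that of Cxcl2 chr5:90903649-90903870 on the plus strand and that of Saa3 chr7:46715701-46715926 on the minus strand.
Il1b promoter: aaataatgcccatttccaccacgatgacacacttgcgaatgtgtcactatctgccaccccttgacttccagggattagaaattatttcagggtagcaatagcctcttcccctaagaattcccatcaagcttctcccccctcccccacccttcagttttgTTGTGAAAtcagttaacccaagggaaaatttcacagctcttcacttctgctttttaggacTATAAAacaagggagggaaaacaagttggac
Tnf promoter: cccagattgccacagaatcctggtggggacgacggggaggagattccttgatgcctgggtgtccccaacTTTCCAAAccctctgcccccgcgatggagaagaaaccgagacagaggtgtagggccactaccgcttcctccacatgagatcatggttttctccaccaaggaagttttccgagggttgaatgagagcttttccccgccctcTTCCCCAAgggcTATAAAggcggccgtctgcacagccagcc
Cxcl2 promoter: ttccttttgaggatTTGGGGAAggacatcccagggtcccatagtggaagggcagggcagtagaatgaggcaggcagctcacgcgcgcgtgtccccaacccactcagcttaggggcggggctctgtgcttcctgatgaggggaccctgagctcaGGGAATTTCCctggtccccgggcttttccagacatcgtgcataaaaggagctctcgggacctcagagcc
Saa3 promoter: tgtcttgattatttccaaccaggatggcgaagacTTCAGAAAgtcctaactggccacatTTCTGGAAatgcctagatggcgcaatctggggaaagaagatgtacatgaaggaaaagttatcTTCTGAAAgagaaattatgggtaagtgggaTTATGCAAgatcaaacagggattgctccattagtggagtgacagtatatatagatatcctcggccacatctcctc
Positions are counted from the RefSeq start, and the window searched ran from 250 bases before it to 50 after. The printed stretches end at the first start in RefSeq or GENCODE. For Cxcl2 and Saa3 they therefore hold only 222 and 226 bases and end before the start from which positions are counted. The Il1b and Tnf promoters each held a TATA box near the start, at positions -31 and -29. Cxcl2 held the NF-kappaB consensus at position -97, which 5.81% of 32851 mouse promoters hold within their window. Saa3 held 4 C/EBP matches, at positions -216, -191, -129 and -99, and 40.7% of all promoters hold at least 1. The NF-kappaB consensus was also found in the promoters of Nlrp3 and Tgfb1. The AP-1 motif (TGANTCA), present in 7.81% of promoters, was found in that of Il1rn. TATAAA was present in 13.6% of promoters. A match is a run of letters in this window and says nothing of whether a factor bound there.

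After barcodes with under 200 genes or over 10% mitochondrial UMIs were removed, 3811, 4567 and 4414 barcodes were left in the naive, D11 and D14 libraries, with median depths of 6031 to 6781 UMIs. Barcodes were placed in a class by fixed marker lists, and those that met more than 1 list (242, 632 and 548) were kept apart. In every class the leading genes by fold included markers of its own list and none of another, although the progenitor gate had only 1 of its own and is not described. The barcodes were placed by these same markers, so this is no independent check of the classes. Neutrophils numbered 1240, 1414 and 1185, classical monocytes (cMono) 137, 183 and 65, and non-classical monocytes (ncMono) 107, 152 and 549. Counting barcodes that also met another list, neutrophils were 1350, 1701 and 1387, cMono 218, 325 and 202, and ncMono 162, 266 and 710. Hemoglobin made up 2.42%, 37.4% and 11.8% of the UMIs, and the libraries shared 12 to 18 barcode sequences. The neutrophils also changed in kind. Cells with at least 3 of the granule transcripts Ltf, Camp, Ngp, Cd177 and Chil3, which mark immature neutrophils, were 1.21% of naive neutrophils, 10.6% of those at D11 and 35.9% of those at D14.

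**Figure D1:**
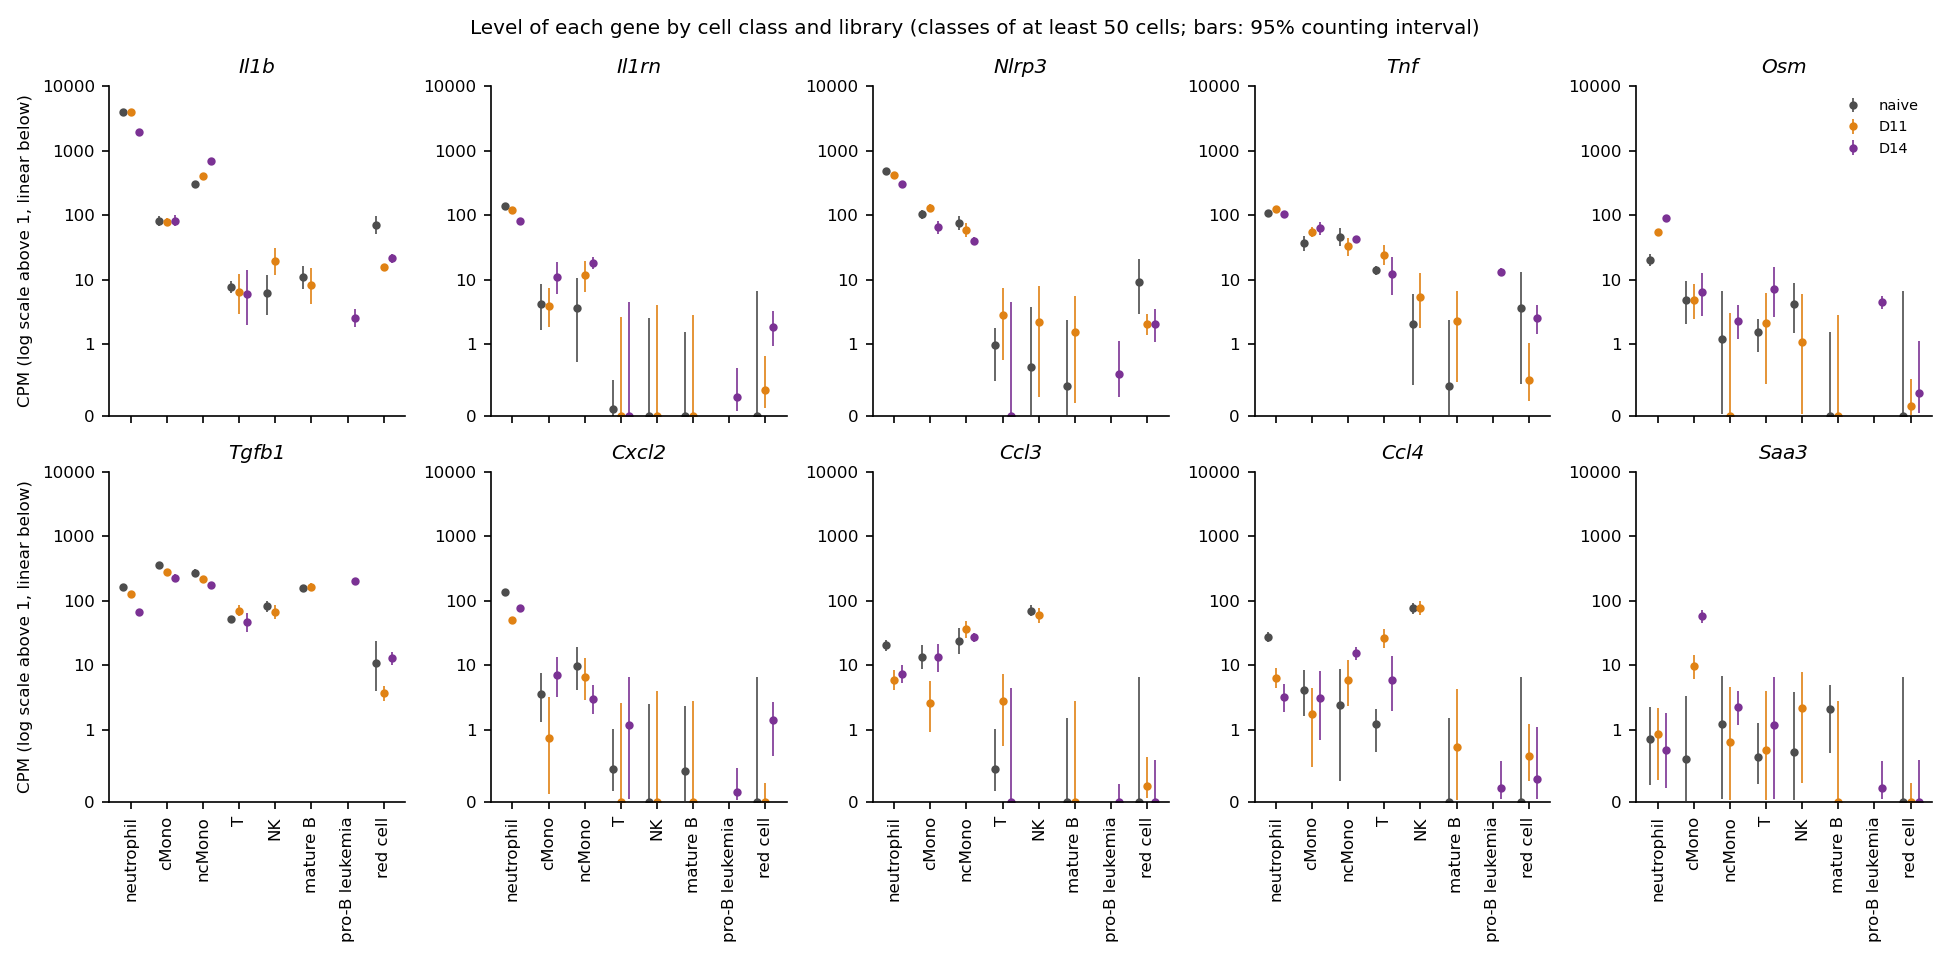
Level of each gene (CPM, log scale above 1 and linear below) in each cell class of at least 50 cells, for the naive, D11 and D14 libraries; bars are 95% counting intervals. Il1b in neutrophils reached 3999 CPM, the highest level of any member, while Saa3 in cMono stood at 57.8 CPM at D14.

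By level, neutrophils stood first for 6 of the 10 genes. This ranks the CPM of each class and is not a share of the transcripts. The share of all genes highest in neutrophils was not computed. Il1b, Il1rn, Nlrp3, Tnf, Osm and Cxcl2 were each highest in neutrophils in all 3 libraries, among the classes of at least 50 cells. Tgfb1 was highest in cMono in all 3. Ccl3 and Ccl4 were highest in NK cells in the naive and D11 libraries. Saa3 was highest in cMono at D11 and D14.

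Il1b stood far above every other member. In neutrophils it was 3999 CPM (3941 to 4057) in the naive library, 3888 CPM (3835 to 3942) at D11 and 1908 CPM (1872 to 1944) at D14. The D14 level was 2.1-fold lower than naive, a log2 ratio of -1.07 (-1.10 to -1.03), and the D11 level was close to naive. When every cell was thinned to 1000 UMIs, 92.4%, 86.5% and 62.2% of neutrophils had an Il1b UMI, against 97.6%, 92.6% and 74.3% before thinning. In T cells, which should lack the gene, the thinned share was between 0.971% and 1.5%. The share was lowest at D14 with and without thinning.

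The level of Il1b differed with the maturity of the neutrophils, and the part of maturity in its fall at D14 was not tested. Cells with fewer than 3 granule markers, called mature here, held 4142, 4653 and 3354 CPM of Il1b in the 3 libraries, so that the D14 ratio was -0.30 (-0.34 to -0.27) among them in place of -1.07. Immature cells held 692 CPM at D11 and 632 CPM at D14, well below the mature cells of the same libraries. In the naive library only 15 cells were immature, with 86.1 CPM. Grouped by the summed level of the 5 granule transcripts, Il1b at D14 was 4438 CPM in cells under 300 CPM of granule transcripts, 3102 CPM from 300 to 1000, 1786 CPM from 1000 to 3000, 807 CPM from 3000 to 10000 and 256 CPM above that. The level fell from each group to the next. In the lowest group the 3 libraries stood at 4160, 4915 and 4438 CPM, and the D14 ratio turned to 0.09 (0.05 to 0.14). That group held 91.8%, 69.8% and 27.0% of the neutrophils. From 300 to 1000 CPM, Il1b was 4033 CPM (3799 to 4279), 4271 CPM (4126 to 4421) and 3102 CPM (2994 to 3214). In that group it was thus lower at D14 than in the naive library. The granule groups were drawn after the values had been seen.

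Nlrp3 followed Il1b closely in this respect. Its neutrophil level was 482 CPM (463 to 503) in the naive library, 411 CPM (394 to 429) at D11 and 298 CPM (284 to 312) at D14. Among mature cells it was 499, 476 and 469 CPM, a D14 ratio of -0.09 (-0.19 to 0.01). In cells under 300 CPM of granule transcripts it was 500 CPM in the naive library and 502 CPM at D14, and in those above 10000 it was 82.3 CPM at D14. In mature neutrophils the sensor of the inflammasome thus stood within counting error of naive, whereas over all neutrophils its D14 ratio was -0.70 (-0.79 to -0.60).

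Il1rn, the antagonist, was 136 CPM (126 to 147), 119 CPM (110 to 129) and 80.6 CPM (73.3 to 88.4) in neutrophils. Its D14 ratio was -0.76 (-0.94 to -0.58) over all neutrophils. Among mature cells it was -0.51 (-0.72 to -0.29) and in the lowest granule group -0.47 (-0.78 to -0.16). Unlike Il1b and Nlrp3, Il1rn was lower than naive at D14 in the lowest granule group as well.

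Osm was higher in the neutrophils of both leukemic libraries. It was 20.2 CPM (16.3 to 24.7) in the naive library, 53.8 CPM (47.7 to 60.4) at D11 and 90.1 CPM (82.4 to 98.3) at D14. The 3 intervals did not overlap. Relative to naive, Osm was 2.66-fold higher at D11, a ratio of 1.41 (1.07 to 1.77), and 4.46-fold higher at D14, a ratio of 2.16 (1.84 to 2.49). The higher level was present in mature cells (19.6, 53.8 and 100 CPM). Immature cells held 81.2 CPM at D14, but their naive level rested on 6 UMIs in 15 cells. In the highest granule group Osm was 33.1 CPM (10.8 to 77.4) in 13 naive cells and 69.4 CPM (57.7 to 82.8) at D14, with overlapping intervals. Across the granule groups of D14 Osm ranged from 69.4 to 108 CPM with no steady order, and in the lowest group its D14 ratio was 2.11 (1.65 to 2.56). After thinning, 2.03%, 4.62% and 8.37% of neutrophils had an Osm UMI, against 6.77%, 14.9% and 26.5% before it, with at most 0.0828% of T cells after thinning and at most 4.85% before.

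Tgfb1 moved the other way in neutrophils. It was 162 CPM (150 to 174) in the naive library, 128 CPM (118 to 138) at D11 and 68 CPM (61.3 to 75.2) at D14, a D14 ratio of -1.25 (-1.43 to -1.07). Mature cells alone showed 166, 145 and 72.5 CPM. In the lowest granule group Tgfb1 was 166 CPM in the naive library and 90.5 CPM at D14, a ratio of -0.88 (-1.20 to -0.57). The lower Tgfb1 was thus present in mature and in all neutrophils at D14. With barcodes that also met another list kept, its D14 ratio was -0.82, which is under 2-fold.

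**Figure D2:**
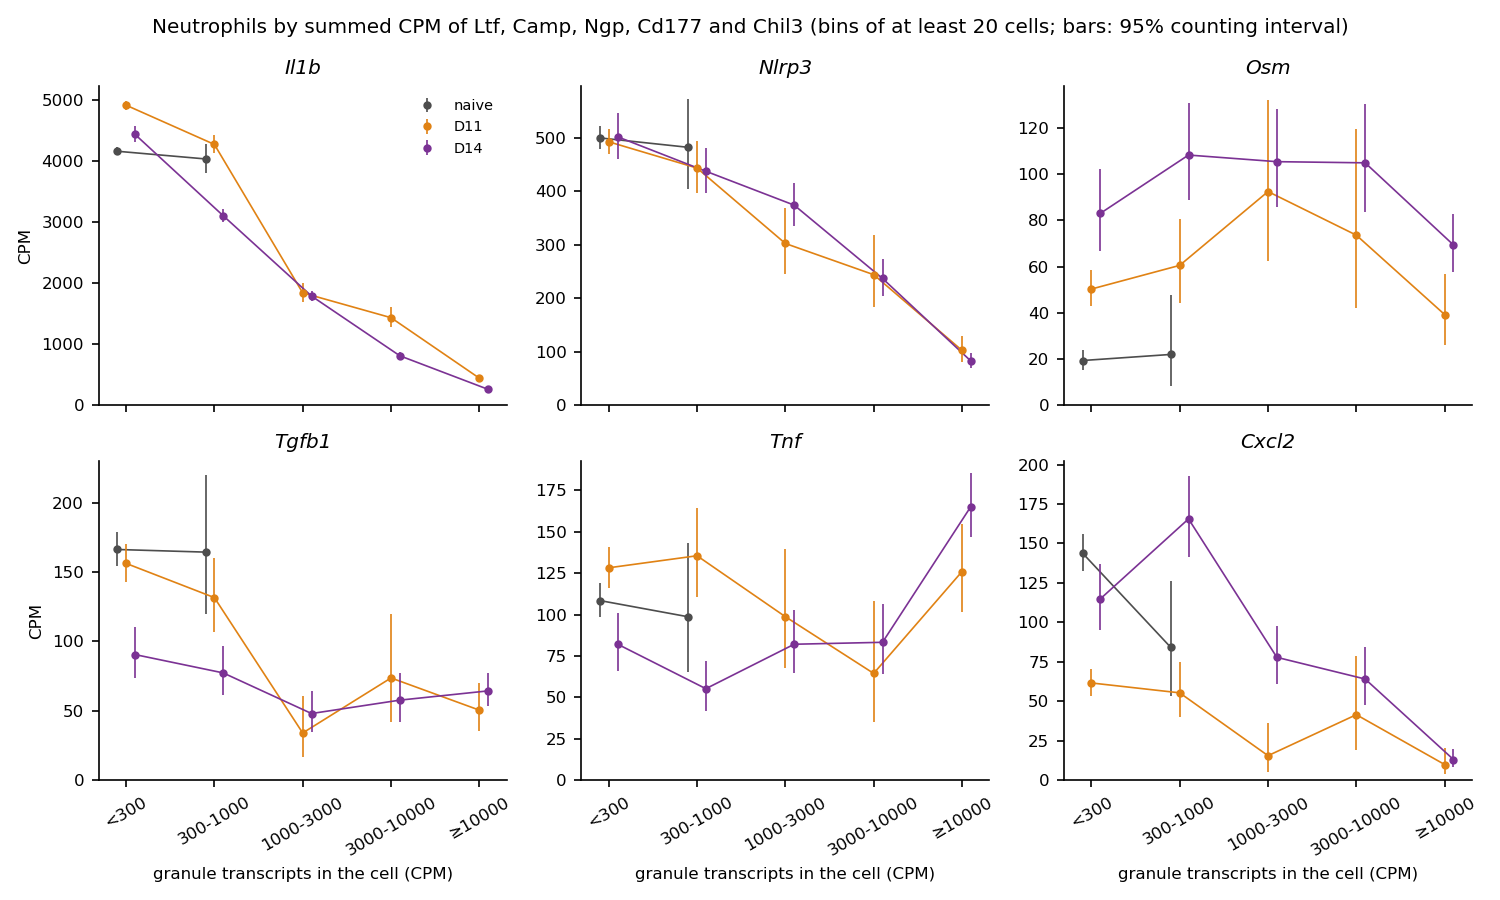
Level (CPM, linear axis from 0) of 6 genes in neutrophils grouped by the summed CPM of Ltf, Camp, Ngp, Cd177 and Chil3 in the cell, for groups of at least 20 cells; bars are 95% counting intervals. At D14 Il1b fell from 4438 to 256 CPM and Nlrp3 from 502 to 82.3 CPM across the groups, whereas Osm stayed between 69.4 and 108 CPM.

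Tnf in neutrophils hardly moved over all cells. It was 107 CPM (97.6 to 117) in the naive library, 125 CPM (115 to 134) at D11 and 104 CPM (95.6 to 113) at D14. Within D14 it was unevenly spread, at 73.7 CPM in mature and 131 CPM in immature cells, and 165 CPM in the highest granule group. Among mature cells the D14 ratio was -0.56 (-0.80 to -0.31).

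Over all neutrophils, the chemokine genes were lower in both leukemic libraries. Cxcl2, which draws neutrophils through CXCR2, was 135 CPM (125 to 146), 50 CPM (44.2 to 56.4) and 78 CPM (70.9 to 85.7). It was lowest at D11, with a ratio of -1.43 (-1.64 to -1.22), and D14 lay between D11 and naive. Among mature cells the levels were 140, 58 and 120 CPM. Cxcl2 was concentrated in few cells, since the top 10% of naive neutrophils with most of its UMIs held 89.4% of them. The share was 24.3% for Il1b and 33.3% for Nlrp3, which had many more UMIs (18408 and 2221, beside 621 of Cxcl2). Il1rn, with 627 UMIs, was at 47.5%, and Tnf, with 492 UMIs, at 88.4%, so Tnf was about as concentrated. One naive neutrophil held 36 Cxcl2 UMIs. Ccl4 was 27.8 CPM (23.2 to 33.1), 6.42 CPM (4.44 to 8.97) and 3.24 CPM (1.92 to 5.12), from 128, 34 and 18 UMIs. Its D14 ratio was -3.10 (-3.90 to -2.38), and -2.23 (-3.08 to -1.48) in mature cells. Ccl3 was 20.4 CPM (16.5 to 25), 6.04 CPM (4.13 to 8.53) and 7.37 CPM (5.29 to 10.0). Over all neutrophils both genes were lower at D11 and D14 than in the naive library by more than their counting intervals. In the lowest granule group this did not hold for Ccl3 at D14, which was 20.5 CPM beside 22.4 CPM in naive cells, a ratio of -0.13 (-0.87 to 0.56). Ccl4 had a D14 ratio of -1.72 (-2.89 to -0.75) there and Cxcl2 one of -0.33 (-0.62 to -0.04).

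The members' shifts in neutrophils are given here beside those of all genes of the class. As the members were chosen by how their levels moved, no verdict is drawn from this. Of the 10 members, 7 reached a mean of 20 CPM over the 3 libraries in neutrophils, and Ccl3, Ccl4 and Saa3 did not. At D11, 1 member (Osm) was at least 2-fold higher than naive, where 2.11% of 4497 genes were, and 1 (Cxcl2) at least 2-fold lower, where 1.2% were. At D14, 1 member (Osm) was higher, against 6.4% of genes, and 2 (Il1b and Tgfb1) were lower, against 9.81%. The median log2 ratio of the 7 members was -0.19 at D11 and -0.76 at D14, beside -0.11 and -0.23 over all genes tested. With trimmed mean (TMM) scaling every neutrophil ratio moved up by 0.20 at D11 and 0.25 at D14, which put Il1b at D14 at -0.82 and Tgfb1 at -1, and turned Il1b at D11 to 0.16, Il1rn at D11 to 0.01 and Tnf at D14 to 0.21.

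**Figure D3:**
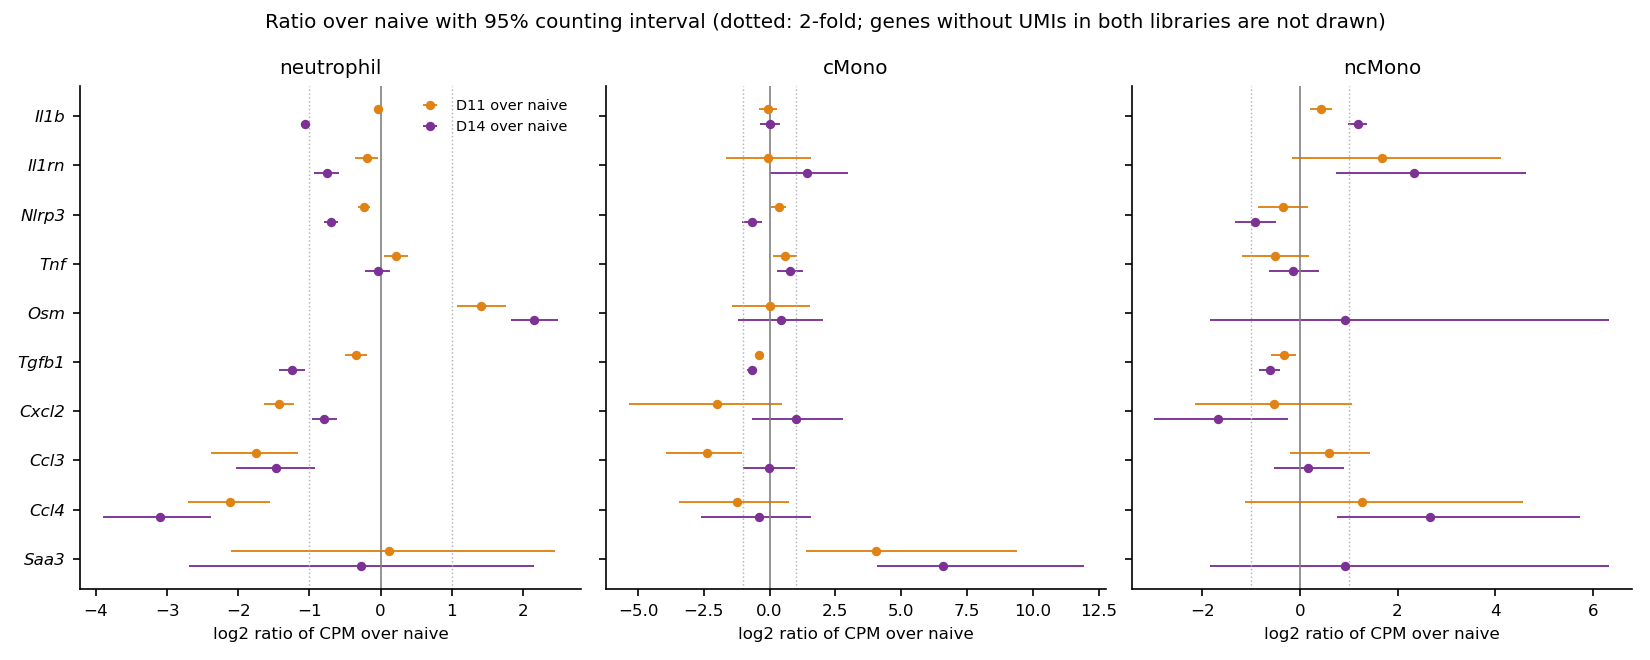
Log2 ratio of CPM at D11 and D14 over naive for each gene in neutrophils, cMono and ncMono, with 95% counting intervals; dotted lines mark 2-fold and the 3 panels have different scales. In neutrophils Osm (2.16) and Ccl4 (-3.10) lay farthest from naive at D14, and in cMono Saa3 (6.61), on 1 naive UMI.

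In ncMono, Il1b was higher in both leukemic libraries, whereas over all neutrophils it was lower at D14 and close to naive at D11. It was 299 CPM (263 to 339) in the naive library, 403 CPM (367 to 440) at D11 and 678 CPM (656 to 701) at D14. The intervals did not overlap, and the D14 ratio was 1.18 (1 to 1.37), 2.27-fold. The higher level was seen in the typical cell, as the median level per cell was 165, 271 and 539 CPM. After thinning, 16.8%, 28.9% and 44.3% of ncMono had an Il1b UMI. The summed CPM of 14 neutrophil markers in ncMono was 266, 207 and 235, with 3, 3 and 0 of them at 0. Whether neutrophil RNA added to Il1b in ncMono was not tested.

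The size of this difference depended on which barcodes counted as ncMono. Another 55, 114 and 161 barcodes met the ncMono list and a second list, and these held 584, 817 and 389 CPM of Il1b. With them included the levels became 429, 639 and 575 CPM, and the D14 ratio 0.42. In clusters of cells in place of marker gates the D14 ratio was 0.43. The direction was the same in each case.

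The antagonist and the chemokine CCL4 were also higher in D14 ncMono, at low levels. Il1rn rested on 3, 14 and 96 UMIs, at 3.64 CPM (0.752 to 10.7), 11.7 CPM (6.41 to 19.7) and 18.3 CPM (14.8 to 22.4), a D14 ratio of 2.33 (0.74 to 4.63). Ccl4 rested on 2, 7 and 81 UMIs, at 2.43 CPM (0.294 to 8.78), 5.86 CPM (2.36 to 12.1) and 15.5 CPM (12.3 to 19.2). The naive counts are too few to fix the size of either ratio. With clusters the D14 ratios were 1.52 for Il1rn and 0.61 for Ccl4, and with every barcode of the ncMono list they were 1.40 and 0.75. In D14 ncMono, 45 cells had a Ccl4 UMI, and 48.9% of them also had Ccl3, against 16.1% of the other cells. The median depth was 9788 UMIs in the first and 9012.5 UMIs in the second. Ccl3 itself was level, at 24.3, 36.8 and 27.1 CPM, with overlapping intervals.

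Other members were lower or unmoved in ncMono. Nlrp3 was 75.3 CPM (57.7 to 96.5), 59.4 CPM (46.4 to 74.9) and 39.9 CPM (34.7 to 45.7), so the inflammasome sensor was lower where Il1b was higher. Tgfb1 was 272 CPM (238 to 310), 216 CPM (190 to 244) and 177 CPM (166 to 189), a D14 ratio of -0.62 (-0.83 to -0.40). Tnf was 46.2, 32.6 and 42 CPM, within counting error. In all, 5 members passed the 20 CPM minimum in ncMono (Il1b, Nlrp3, Tnf, Tgfb1 and Ccl3). At D11 0 of them were 2-fold higher, beside 2.43% of 6097 genes, and 0 were 2-fold lower, beside 2.1%. At D14, 1 (Il1b) was 2-fold higher, beside 3.3%, and 0 were 2-fold lower, beside 2.72%. Their median ratio was -0.33 at D11 and -0.14 at D14, and that of all genes -0.01 and 0.01. With TMM scaling the ncMono ratios at D14 moved up by 0.19, which put Il1b at 1.38 and turned Tnf to 0.06.

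In barcodes that met the cMono list alone, Il1b was low and level at 81.3 CPM (68.3 to 96.1), 77.5 CPM (66.5 to 89.8) and 81.6 CPM (66.6 to 99.0). The median cell had no Il1b UMI in any library. With every barcode of the cMono list counted it was 279, 231 and 143 CPM, a D14 ratio of -0.96, and with clusters that ratio was -1.21, so the level values hold for that gate alone. Tnf was 36.8 CPM (28.2 to 47.2), 55.5 CPM (46.2 to 66.1) and 62.6 CPM (49.6 to 78.0), a D14 ratio of 0.77 (0.27 to 1.27). With cells thinned to 1000 UMIs the ratio turned to -0.71 at D11 and -0.38 at D14. The thinned ratios come from a single random draw in 137, 183 and 65 cells and rest on few Tnf UMIs. They therefore cannot decide whether depth played a part. Nlrp3 was 103, 130 and 65 CPM, highest at D11 and lowest at D14, with a D14 ratio of -0.66 (-1.06 to -0.27). Tgfb1 was 365 CPM (337 to 395), 276 CPM (254 to 298) and 230 CPM (204 to 258), lower at each stage.

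Saa3 was the member that set cMono apart at D14. It was 0.594 CPM (0.0150 to 3.31) in the naive library, 9.69 CPM (6.07 to 14.7) at D11 and 57.8 CPM (45.3 to 72.7) at D14, from 1, 22 and 73 UMIs. In barcodes that met the neutrophil list alone it stayed below 1 CPM, at 0.869, 0.944 and 0.719 CPM, and in those of the ncMono list alone it did not exceed 2.29 CPM. With every barcode of the neutrophil list counted it was 0.694, 0.613 and 20.2 CPM, and 171 of the 175 UMIs at D14 lay in barcodes that also met another list. Every barcode of the ncMono list together held 6.77 CPM at D14. The 14 neutrophil markers summed to 392, 399 and 384 CPM in cMono, with 2 of them at 0 in each library. Whether RNA of other cells added to Saa3 in cMono was not tested.

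Nearly all of this signal came from a handful of cells. At D14, 51 barcodes of all classes held the 420 Saa3 UMIs, and 12 barcodes with at least 10 UMIs held 83.1% of them. Of these 12, 11 met the cMono list, 3 met it alone, and 3 also met the neutrophil list, 4 the red cell list and 2 the ncMono list. The highest held 73 UMIs. The 12 were deep barcodes, with a median of 20467.5 UMIs, and their cMono markers summed to 6449 CPM while their neutrophil markers summed to 516 CPM, which compares with 41759 CPM of the latter in D14 neutrophils. At D11, 13 of the 22 UMIs in cMono lay in 1 cell. With every barcode that met the cMono list counted, whatever else it met, Saa3 was 3.07, 6.14 and 90.7 CPM in 218, 325 and 202 barcodes, and the ratios over naive were 1 at D11 and 4.88 at D14. After thinning, 0 of 137, 2 of 183 and 3 of 65 cMono had a Saa3 UMI.

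**Figure D4:**
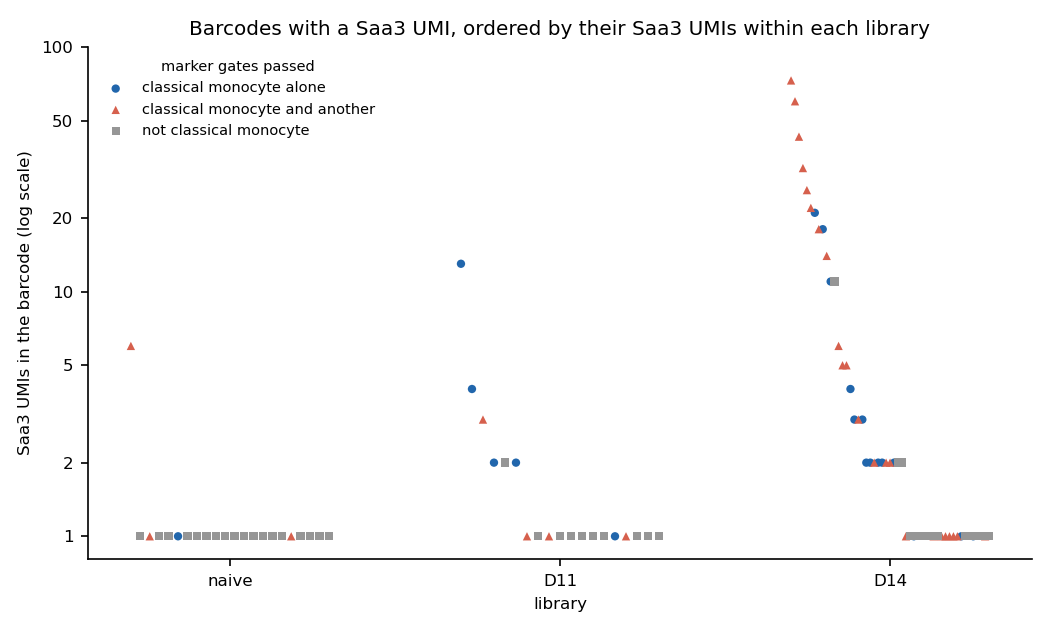
Saa3 UMIs (log scale) in each barcode with at least 1, ordered within the naive, D11 and D14 libraries and marked by the gates the barcode met. At D14, 12 barcodes reached 10 UMIs, and most of them met the cMono list together with another.

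There were 5 members that passed the minimum in cMono, Il1b, Nlrp3, Tnf, Tgfb1 and Saa3, the last only through its high library, D14. The counts and medians that include Saa3 are therefore descriptions and no support for a shift of the members. At D11, 1 (Saa3) was 2-fold higher, beside 1.19% of 6135 genes, and 0 were 2-fold lower, beside 0.782%. At D14, 1 (Saa3) was 2-fold higher, beside 3.94%, and 0 were 2-fold lower, beside 3.46%. The median of the 5 was 0.34 at D11 and 0.01 at D14, and that of all genes 0.02 and 0.05.

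Ccl3 and Ccl4 were also carried by NK cells and by basophils, granulocytes with too few cells for the order given above. In NK cells Ccl4 was 76.8 CPM (63.2 to 92.4) in the naive library and 78.1 CPM (61.1 to 98.4) at D11, and Ccl3 was 70.6 CPM (57.7 to 85.7) and 59.7 CPM (44.9 to 77.7). The D14 library held 48 NK cells, with 56.6 CPM of Ccl4 from 18 UMIs and 22 CPM of Ccl3 from 7 UMIs. Basophils, only 11, 10 and 2 cells, carried far more of both, at 1828, 2827 and 2260 CPM of Ccl4 and 1162, 1073 and 1725 CPM of Ccl3. Basophils also held 683 CPM of Nlrp3 and 359 CPM of Osm in the naive library, above the neutrophil levels there. Of all naive Ccl4 UMIs, neutrophils held 28.8%, NK cells 25.2% and the 11 basophils 24%. In T cells Ccl4 was 1.26, 26.4 and 6 CPM, and 36 of the 37 UMIs at D11 lay in 1 cell.

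In mature B cells, T cells and the leukemia cells Tgfb1 was the member with the highest level. It was 160, 167 and 156 CPM in mature B cells and 53.2, 70.6 and 46.8 CPM in T cells. In NK cells Tgfb1 was 82.3 CPM in the naive library and 67.3 CPM at D11. Cells with the pro-B list numbered 0, 47 and 479, and held 180 CPM (157 to 205) at D11 and 203 CPM (196 to 210) at D14. At D14 the leukemia cells lay below cMono (230 CPM, overlapping interval) and above ncMono (177 CPM). Among the other members they held 13 CPM (11.2 to 14.9) of Tnf and 4.44 CPM of Osm, and 2.55 CPM of Il1b, which is no more than in T cells (6 CPM). They were much deeper than other cells, with a median of 31569 UMIs at D14.

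These levels, the number of cells and the depth of the cells together set where the transcripts lay in each library. At D14 the 479 leukemia cells held 15323668 UMIs of all genes, beside 5560775 in the 1185 neutrophils. The shares below are to be read beside this difference. Neutrophils held 84.7%, 74.7% and 63.4% of the Il1b UMIs, and ncMono 1.13%, 1.74% and 21.2%. For Tgfb1 the neutrophil share was 21.8%, 18.2% and 4.81%, while the leukemia cells held 5.86% at D11 and 39.5% at D14. For Tnf neutrophils held 55.5%, 54.6% and 38.3%, and at D14 ncMono held 14.6% and leukemia cells 13.2%. For Osm neutrophils held 56.4%, 66.3% and 68.9%. By D14 ncMono were the largest single source of Ccl3 (49.7%) and Ccl4 (42.6%). Saa3 at D14 lay mostly in barcodes that met several lists (77.6%), with 17.4% in cMono alone.

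**Figure D5:**
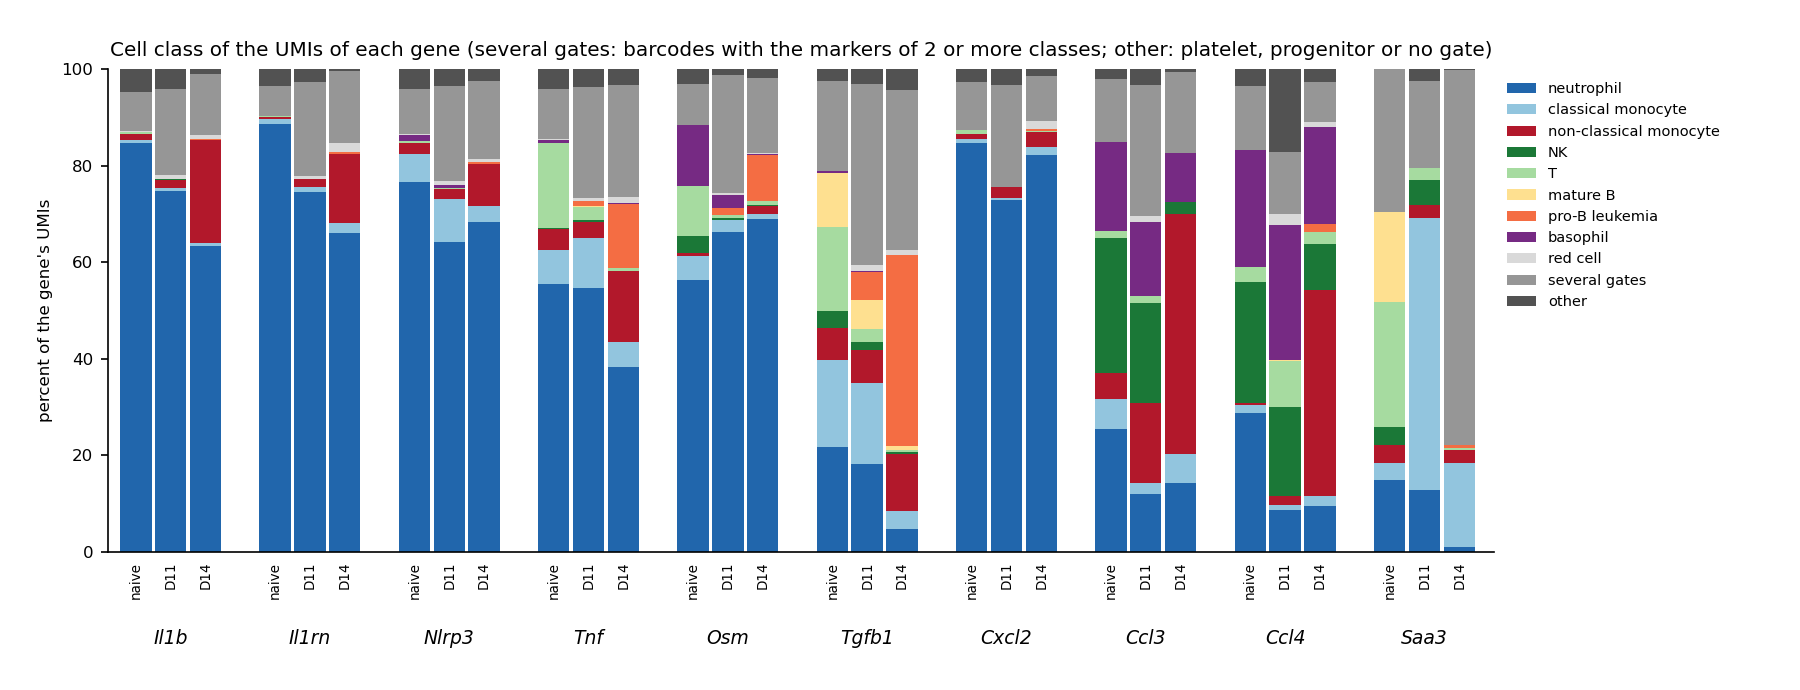
Percent of each gene's UMIs by the cell class of the barcode, in the naive, D11 and D14 libraries; bars start at 0 and sum to 100. Neutrophils gave most of Il1b in each library (84.7%, 74.7% and 63.4%), ncMono held 21.2% of Il1b at D14, and leukemia cells gave 39.5% of Tgfb1 there.

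The partners of these genes were followed in 10 lists that hold no member, counted by the same 2-fold rule at D14. The shares of all genes that were higher and lower, against which each count is to be read, were 6.4% and 9.81% in neutrophils, 3.94% and 3.46% in cMono, and 3.3% and 2.72% in ncMono. The lists hold 0 to 12 genes that reached the minimum, so a single gene makes a large share, and the counts in neutrophils were not split by maturity. A gene could also reach the minimum only through the library where it was high. Among the genes named below, this was so in cMono for Lcn2, Wfdc21, Ier3, Il1r2 and Il4ra through D14 and for Ccl24 through the naive library. The counts are thus partly set by the minimum and are descriptions.

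Among acute phase and antimicrobial genes 4 of 6 tested were higher and 0 lower in neutrophils, 4 of 6 and 0 in cMono, and 3 of 4 and 0 in ncMono, with median ratios of 1.86, 1.02 and 2.28 beside -0.23, 0.05 and 0.01 over all genes. Lcn2, which binds bacterial siderophores, was 716, 2477 and 5276 CPM in neutrophils and 1.19, 29.9 and 261 CPM in cMono. Its product is itself stored in neutrophil granules, and in the same neutrophils the granule transcripts Ltf and Ngp went from 253 to 2325 CPM and from 1060 to 7670 CPM between the naive and D14 libraries, with immature cells from 1.21% to 35.9%. Their part in the neutrophil counts was not tested. Wfdc21, a whey acidic protein family member, was 0, 15 and 303 CPM in cMono. In T cells at D14 the same genes were at 8.4 and 9.6 CPM, and in ncMono at 10.5 and 9.74 CPM. At D14 Lcn2 and Wfdc21 were at 22 and 9.44 CPM in the 48 NK cells and at 13.7 and 8.21 CPM in the 39 mature B cells. In the leukemia cells they were at 4.83 and 2.94 CPM. The granule transcripts Ltf, Camp and Ngp were at 1.58, 3.17 and 3.96 CPM in D14 cMono, whereas Chil3 was 107, 250 and 1437 CPM there. Complement C3 in ncMono was 21.9, 52.7 and 165 CPM, and Wfdc17 12.1, 68.6 and 114 CPM.

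Of the NF-kappaB feedback genes tested in ncMono, 5 of 10 were at least 2-fold higher at D11, beside 2.43% of all genes, and 5 at D14, beside 3.3%. In ncMono 0 were lower and their median was 1 at D14, beside 0.01 over all genes, and Tnfaip3, whose product A20 dampens the pathway, was 23.1, 74.5 and 117 CPM. Bcl3, a nuclear IkappaB protein, had a D14 ratio of 1.89 (0.88 to 3.12). In cMono 2 of 11 were higher at D14 and 0 lower, with a median of 0.74 beside 0.05, among them Ier3 at 4.16, 19.4 and 38.8 CPM and Nfkb2 with a ratio of 1.20 (0.67 to 1.75). In neutrophils 1 of 12 was higher, Ier3, at 119, 280 and 319 CPM, and Nfkb1 had a ratio of 0.63 (0.49 to 0.76).

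In the TGF-beta list 3 of 7 genes tested in neutrophils were lower at D14, beside 9.81% of all genes, and 0 were higher. Their median was -0.92, beside -0.23 over all genes. The part of the immature cells, 1.21% of naive and 35.9% of D14 neutrophils, was not tested. The receptor gene Tgfbr1 was 184, 128 and 81.1 CPM, and Nrros, which anchors latent TGF-beta on myeloid cells, was 221, 129 and 103 CPM. In ncMono 1 of 7 was lower, Tgfbr1, at 905, 413 and 330 CPM, and Nrros had a ratio of -0.54 (-0.73 to -0.34). In cMono 1 of 7 was higher, the inhibitor Smad7, at 17.8, 76.2 and 54.7 CPM, while Tgfbr2 had a ratio of -0.94 (-1.48 to -0.42).

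The inflammasome and interleukin-1 lists gave mixed counts. In neutrophils 1 of 8 inflammasome genes was higher at D14, the non-canonical caspase gene Casp4 (108, 189 and 224 CPM), and 1 was lower, the DNA sensor gene Aim2 (49.7, 27.7 and 12.9 CPM). In cMono 2 of 9 were higher and 1 lower, with the adaptor gene Pycard at 92, 129 and 212 CPM and Txnip at 347, 307 and 161 CPM. In ncMono 0 of 8 passed in either direction, and Aim2 and Txnip had ratios of -0.76 and -0.60. The decoy receptor gene Il1r2, whose product captures interleukin-1, was 891, 724 and 1249 CPM in neutrophils, a ratio of 0.49 (0.43 to 0.54), and 8.9, 5.72 and 59.4 CPM in cMono. Il18 in cMono was 52.8, 31.3 and 22.2 CPM. Il18r1 in neutrophils and Il1rap in ncMono had ratios of 0.90 and -0.07. In the IL-1 list as a whole 0 of 4 genes passed in neutrophils, 1 was higher and 1 lower of 3 in cMono, and 0 of 1 passed in ncMono. The higher gene in cMono was Il1r2, which reached the minimum only through D14.

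In the TNF superfamily list 2 of 6 genes were lower in neutrophils at D14, beside 9.81% of all genes, Tnfsf14 (78.2, 63 and 29.7 CPM) and Tnfaip2 (1041, 602 and 399 CPM), and 2 of 5 were higher in ncMono, beside 3.3%, Tnfaip2 (66.8, 83.7 and 153 CPM) and Traf1 (29.2, 54.4 and 62.6 CPM). Tnfaip2 therefore stood lower than naive in neutrophils and higher in ncMono. Tnfaip2 and Traf1 were placed in this list but are not ligands or receptors of the TNF superfamily. In cMono 0 of 4 passed, and Tnfaip2 and Tnfrsf1a had ratios of -0.41 and 0.16.

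Oncostatin M belongs to the IL-6 family. Of the receptors and signalling genes of that family 2 of 5 were higher in ncMono at D14, with a list median of 0.23, Lifr, a receptor chain of the family (41.3, 50.2 and 330 CPM), and the feedback inhibitor Socs3 (57.1, 119 and 160 CPM). In cMono 1 of 5 was higher, with a list median of 0.31, Socs3 (23.7, 48 and 57.8 CPM), and Stat3 had a ratio of 0.54 (0.31 to 0.76). In neutrophils 0 of 3 passed, with Il6ra at -0.54 and Socs3 at -0.20.

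Chemokines other than the members passed the minimum in few cases. In neutrophils only Ccl6 did, with a ratio of -0.56, and 0 of 1 was past 2-fold. In cMono 2 of 3 were lower, Ccl24 (43.3, 21.1 and 5.55 CPM) and Ccl6 (932, 692 and 385 CPM). In ncMono 1 of 2 was higher, Ccl9 (97.2, 130 and 214 CPM), and Ccl6 had a ratio of 0.24. Of the receptors of CCL3, CCL4 and CXCL2, 0 passed. Ccr1 was 799, 577 and 543 CPM and Cxcr2 1671, 1570 and 1370 CPM in neutrophils, Ccr1 had a ratio of -0.02 in cMono, and 0 reached the minimum in ncMono.

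The list named interleukin-10 arm also holds genes that are not of the interleukin-10 pathway itself, among them Cd14 and Ptgs2. Cd14, the co-receptor for bacterial lipopolysaccharide, was higher at D14 in neutrophils (63.2, 128 and 202 CPM) and ncMono (14.6, 30.1 and 145 CPM). Ptgs2, which encodes cyclooxygenase-2, was 65.2, 69.1 and 28.8 CPM in neutrophils. In all, 1 of 5 genes of this list was higher and 1 lower in neutrophils, 1 of 4 higher in ncMono and 0 of 4 past 2-fold in cMono, where Il4ra and Il10ra had ratios of 0.95 and -0.94. Il10ra in ncMono had a ratio of -0.73.

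The genes whose levels ran most closely with each member were found by Pearson correlation of log2(CPM + 1) over 20 class-by-library sums, among 6723 genes. These points share libraries and are mostly a contrast between cell classes, so r describes where genes are expressed. Il1b ran closest with Siglece (0.969), C5ar1 (0.966) and Gcnt2 (0.960), and Nlrp3 with Cebpd (0.987), Lilrb4a (0.983) and Taldo1 (0.982). Il1rn ran closest with Fpr1, Hnmt and Trem1 (each 0.967), and Cxcl2 with Arg2 (0.957), Gm16556 (0.949) and the member Il1rn (0.948). Most of these are genes of neutrophils and other myeloid cells. Tnf ran closest with Socs3 (0.943), Ifih1 (0.928) and Jaml (0.924), and Osm with Cpne2 (0.921), Bend4 (0.912) and Ccno (0.889). Tgfb1 ran closest with Pip4p1 (0.979), Cnpy3 (0.975) and Ankle2 (0.963). The likeness was weaker for the genes with few UMIs. Ccl3 ran with Cd244a (0.9), Gsap (0.888) and Rap1gap2 (0.886), Ccl4 with Chn2 (0.799), Runx2 (0.792) and Nol4l (0.790), and Saa3 with Exoc3l2 (0.828), Vcan (0.789) and Tfec (0.756).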

How the data were processed

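PB leukocytes of 3 libraries (naive, D11 and D14, 1 per condition) were profiled by 10x 3′ single-cell RNA-seq after red cell lysis and dead cell removal. The deposited matrices hold UMI counts per gene and barcode. Per the submitters' processing notes, reads were processed with Cell Ranger 7.1.0 on mm10, whereas the matrix headers name version 5.0.1. The 10 genes and the lists were chosen with earlier results of these data known.

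Barcodes under 200 genes or above 10% mt- UMIs were dropped. A barcode entered a class by its number of list markers with a UMI, the thresholds being set after the number of markers per barcode had been seen. Barcodes in more than 1 class were left out of the class sums as possible doublets. UMIs were summed per class and library and scaled to CPM. The 95% intervals of levels were exact Poisson limits, those of ratios exact conditional binomial limits and those of shares Clopper-Pearson limits. UMIs are counted once per molecule, and the intervals cover counting error only. With 1 library per condition no test was made and no p-value is given. A gene was counted where its mean over the 3 libraries reached 20 CPM and the difference 2-fold, and where a class had 0 UMIs of a gene 3 counts were used to bound the ratio. For shares of cells each cell was thinned to 1000 UMIs. Named genes were the 10 members, the 2 genes of each list with the largest D14 ratio in each myeloid class, and the 3 closest genes by correlation. The barcodes, granule groups and genes of other classes shown beside Saa3, Il1b and Lcn2 were chosen after the values were seen. Gene identifiers were matched to GENCODE on GRCm38 for 32158 of 32285 genes. Alternatives were other barcode filters, Scrublet scores (116, 167 and 156 barcodes removed), Leiden clusters, stricter gates, TMM factors (edgeR, used for scaling alone), other sums and depths, other minimums and folds, and 4 choices made after seeing the data. The ratio code was checked on draws with known answers. Python 3.11.15, numpy 2.4.6, scipy 1.17.1, pandas 2.3.3, scanpy 1.11.5, R 4.3.3 and edgeR 4.0.16 were used.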

Additional observations from a re-analysis of the deposited data

Results flagged for a closer look

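In 3 of the 10 genes the D14 ratio over naive had opposite signs in 2 myeloid classes, each beyond its counting interval. The share of all genes with such opposite signs was not computed. As the members were chosen by how their levels moved, this count is a description. For Il1b the log2 ratio in neutrophils less that in ncMono was -2.25, from -1.07 and 1.18, and the difference was not tested. In neutrophils under 300 CPM of granule transcripts the Il1b ratio was 0.09 (0.05 to 0.14), so the signs were not opposite there. In those from 300 to 1000 CPM, Il1b was 4033 CPM in the naive library and 3102 CPM at D14. With barcodes of other gates kept the ncMono ratio of Il1b was 0.42. For Il1rn the neutrophil ratio of -0.76 less the ncMono ratio of 2.33 was -3.09, on 3 naive ncMono UMIs, and the difference was not tested. For Il1rn the neutrophil ratio less the cMono ratio of 1.42 was -2.17, on 7 naive and 14 D14 UMIs in cMono, and the difference was not tested. In clusters the cMono ratio of Il1rn turned to -0.24. For Ccl4 the neutrophil ratio of -3.10 less the ncMono ratio of 2.67 was -5.77, on 2 naive ncMono UMIs, and the difference was not tested. The ncMono ratio of Ccl4 was 0.61 with clusters and 0.75 with barcodes of other gates kept.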

How the results depend on the processing

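No paired analysis was possible because each condition has 1 library and no result comes from a test, and leaving out a replicate could not be run for the same reason. Of 671 recomputed log2 ratios, 577 stayed within the counting interval of the main ratio and 82 moved outside it. The other 12 changed sign from a main ratio that was beyond its counting interval, as 35 of the 58 main ratios were. Sign changes of main ratios within counting error were not counted apart, and they lie among the 577 and the 82. The D14 ratio of Osm in neutrophils lay between 1.91, with barcodes of other gates kept, and 2.41, with TMM. That of Saa3 in cMono lay between 4.88 and 7.47 where a ratio could be given, and after thinning or without the top 1% of cells it could not, as no naive UMI was left. The count of 6 genes highest in neutrophils did not change in the alternatives run for it. The limits are the single library per condition, few cells (65 cMono at D14) and few UMIs of Saa3, Il1rn, Ccl3 and Ccl4 in monocytes. The cause of the shifts below was not tested.

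Il1b at D14 in neutrophils (-1.07) became -1.12 with Leiden clusters, -0.82 with TMM factors, -0.81 as the mean per cell, -0.77 after thinning, -1.11 without the top 1% of cells, -1.32 with barcodes of other gates kept, -0.30 in cells with fewer than 3 granule markers, -0.51 with fewer than 4 and 0.093 under 300 CPM of granule transcripts. Il1b at D14 in ncMono (1.18) became 1.5 without the highest Scrublet scores, 0.43 with clusters, 1.38 with TMM, 1.58 after thinning and 0.42 with barcodes of other gates kept. Il1b at D11 in neutrophils (-0.04) turned to 0.16 with TMM, 0.056 as the mean per cell, 0.091 after thinning, and 0.17, 0.10 and 0.24 in the 3 granule subsets. Il1rn in neutrophils at D11 turned to 0.0068 with TMM, Il1rn in cMono at D14 to -0.24 with clusters, Nlrp3 in neutrophils at D14 to 0.0061 under 300 CPM of granule transcripts, and Tnf in cMono to -0.71 at D11 and -0.38 at D14 after thinning. The thinned Tnf ratios in cMono rest on few UMIs.

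The neutrophil counts of genes 2-fold higher (1 at D11 and 1 at D14) became 0 with a minimum of 100 CPM, and that at D11 also 0 at 3-fold. The count lower at D11 (1) became 3 with a minimum of 5 CPM, and 0 with 100 CPM or at 3-fold. The count lower at D14 (2) became 1 with TMM, per-cell means, thinning, or cells with fewer than 3 or 4 granule markers, 0 under 300 CPM of granule transcripts or at 3-fold, 4 with a minimum of 5 CPM and 5 at 1.5-fold. With barcodes of other gates kept it stayed 2 but held Il1b and Cxcl2 (-1.11) in place of Il1b and Tgfb1 (-0.82). In cMono the counts higher (1 at D11 and 1 at D14) became 0 with the stricter barcode filter, TMM, no top 1% of cells or a minimum of 100 CPM. At D11 it was also 0 with clusters, thinning or barcodes of other gates kept, and both were 2 at 1.5-fold. At D14 it was 2 with a minimum of 5 CPM. The counts lower in cMono (0) became 1 with a minimum of 5 CPM at D11, and at D14 1 with clusters (Il1b, at -1.21) and 2 at 1.5-fold. In ncMono the count higher at D11 (0) became 2 with a minimum of 5 CPM and 1 at 1.5-fold, and that at D14 (1) became 0 with clusters, barcodes of other gates kept or 3-fold, and 3 with a minimum of 5 CPM. The count lower at D11 (0) became 1 after thinning, and at D14 (0) 1 with clusters, barcodes of other gates kept or a minimum of 5 CPM, and 2 at 1.5-fold. The share of neutrophils with an Il1b UMI (92.4%, 86.5% and 62.2%) became 97.6%, 92.6% and 74.3% unthinned and 96.1%, 90.6% and 72.7% at 2000 UMIs.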
